A study of Mus musculus with 10 samples.

Results

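The mRNAs of 32 subunits of the INO80, SRCAP and TIP60 complexes were followed in mouse embryonic stem (ES) cells. The members were chosen by gene symbol, from a list of the complexes' subunits. All 32 symbols were found among the 22713 gene IDs of the mRNA tables, as 33 IDs because Srcap is listed as 2 gene models, and all 33 passed the filter on low values, a normalized read count in counts per 1000000 reads (CPM) above 1 in at least 1 of the libraries of their table. The list holds 11 INO80-specific subunits, 3 SRCAP-specific subunits, 12 TIP60-specific subunits, 4 subunits that the complexes share and the 2 genes of the histone variant H2A.Z. Specific is meant among these complexes only, since some members, such as Mcrs1, are also known from other assemblies. The H2A.Z genes encode a histone and not a subunit, but are counted among the 32 subunits throughout.

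Pontin (Ruvbl1) and Reptin (Ruvbl2) are AAA+ ATPases that form a ring at the core of these complexes. INO80 slides nucleosomes, SRCAP exchanges histone H2A for H2A.Z, and TIP60 acetylates histones and in mammals also carries p400 (Ep400), an ATPase that can exchange H2A.Z. In ES cells, TIP60-p400 and INO80 are known for their part in self-renewal.

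The study removed Pontin with Cre in Pontinf/f; CreER ES cells, in which the drug 4-hydroxytamoxifen (OHT) activates Cre and exon 3 of the floxed alleles is cut out. mRNA was sequenced from untreated cells of this line (WT) and from OHT-treated cells of day 3 (OHT 3D) and day 4 (OHT 4D), 1 library each. In ZHBTc4 ES cells, whose Oct4 is switched off by tetracycline (Tc), 1 library was made after 2 days of Tc (Tc 2D). Another 2 were made 4 days after infection with a pLKO lentivirus carrying a control shRNA against luciferase. The last 2 were made 4 days after infection with a pLKO lentivirus carrying an shRNA against the long noncoding RNA linc1253. Chromatin immunoprecipitation (ChIP) of untreated ZHBTc4 cells gave 1 library with a Pontin antibody and 1 control library with a GFP antibody. WT was the control for Tc 2D, so that Oct4 depletion and cell line cannot be told apart there. Neither an OHT-treated line without floxed alleles nor a vehicle control is among the libraries used here.

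The libraries held between 17187595 and 37951742 reads on genes, and the subunit IDs had between 262 and 26263 reads each. Values of the first 4 mRNA libraries named are given throughout in the order WT, OHT 3D, OHT 4D, Tc 2D. Ruvbl1 had 198, 33.3, 50.9 and 85 CPM, and Pou5f1, the gene of Oct4, had 301.5, 296, 347 and 21.1. All 12 ES cell markers were above 1 CPM in all 8 libraries. Their CPM summed to 4097, 3927, 4171 and 612. Of 22 feeder fibroblast markers kept, 20 were higher than in WT by a log2-fold-change above 0.58 at OHT 3D, as were 21 at OHT 4D. In the Tc library 5 were higher and 7 lower, and CPM summed over the list came to 1100, 1451, 1648 and 922. The fibroblast marker Lum was at 0 in WT and at OHT 3D, and 5 (Postn, Lum, Dcn, Acta2, S100a4) were at 0 at Tc 2D. By the same limit, 5, 6 and 8 of 11 trophectoderm markers kept were higher in the OHT 3D, OHT 4D and Tc 2D libraries, and 2, 1 and 2 were lower. Of 13 primitive endoderm markers kept, 6, 10 and 7 were higher and 0, 0 and 1 lower. Over all genes kept, 6.01%, 6.48% and 23.9% were higher in these libraries and 5.88%, 8.89% and 25.8% lower. The fibroblast list holds Timp2, which the study names among differentiation genes that rise without Pontin. The part of these cell types in the differences below was not tested. In these bulk samples, fewer cells of a type and less RNA per cell cannot be told apart.

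To compare levels between genes, CPM was divided by the length of the merged annotated exons. On this scale of CPM per kilobase, the median over the 8 libraries ran from 4.01 for Actr5, an actin-related subunit of INO80, to 264 for H2afz, the main H2A.Z gene. Next came Morf4l2 (182) and Morf4l1 (152), paralogous MRG domain subunits of TIP60. Of the 33 IDs, 23 had a median below 20, among them all 3 ATPases of the complexes, with 12.3 for Ino80, 12.1 for Ep400, and 9.07 and 11.9 for the 2 models of Srcap. Along the order of medians, 29 of 32 neighbouring pairs overlapped in their range over the libraries. The exceptions were Morf4l1 above Actl6a, Actr8 above Vps72, and Meaf6 above Actr5. Merged exons can be longer than a transcript. They came to 3639 bases for Vps72 and 4186 for Actr5, whose longest coding transcripts have 1456 and 2402. The order, with Actr5 as the lowest, can thus depend on the length used. These ranges run across 2 tables that were normalized separately, from libraries sequenced on different instrument models.

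**Figure D1:**
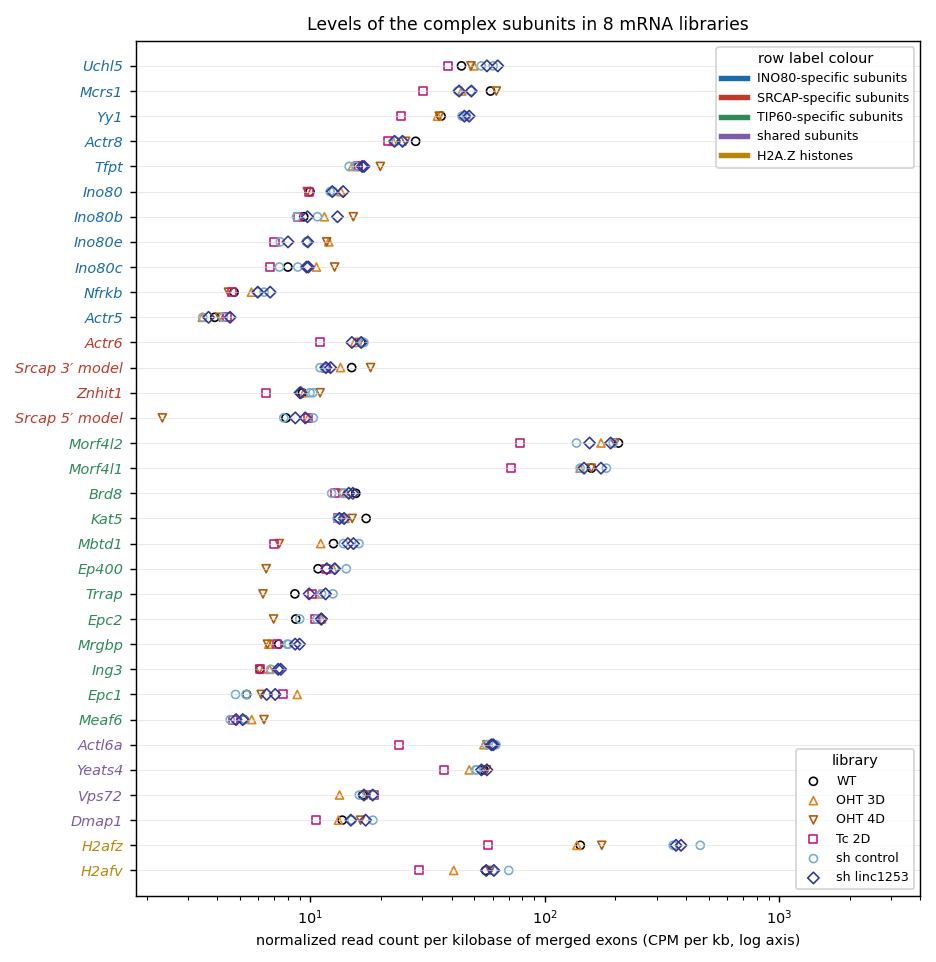
Each row is a subunit gene ID and each symbol 1 of the 8 libraries. The horizontal axis, logarithmic, is CPM per kilobase of merged exons. Of the rows, 24 of 33 span less than 2-fold, a share that was not counted over all genes. The 5′ model of Srcap has 1 library (OHT 4D) far below the others, and H2afz splits into the libraries of the separately normalized tables.

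Within a gene, 24 of 33 IDs differed by less than 2-fold between the lowest and the highest of the 8 libraries. That share was not counted over all genes, so it does not mark the subunits as unusually steady. These ranges too run across the separately normalized tables. The widest ranges were those of H2afz (8.03-fold) and of the 5′ model of Srcap (4.41-fold), and the narrowest was that of the TIP60 subunit Ing3 (1.23-fold).

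The first question was whether the mRNAs of Pontin's partners moved when Pontin was depleted. At OHT 3D, 32 of the 33 IDs stayed within a log2-fold-change of 0.58 against WT, the limit the study uses, computed on CPM plus 1. The median log2-fold-change of the subunits was -0.05, beside -0.02 for all 13449 genes kept. Epc1 alone was past the limit, and upward, which is 1 of 33 beside 6.01% of all genes. None was past it downward, beside 5.88% of all genes. With 1 library a group there is no test, and the intervals given cover the counting of reads only.

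Epc1, a scaffold protein of the TIP60 complex, had 23.9, 39.3, 27.6 and 34.3 CPM. Its ratio to WT at OHT 3D was 1.64 (95% counting interval 1.47 to 1.83), a log2-fold-change of 0.69, and at OHT 4D the log2-fold-change was 0.20. WT was thus the lowest of the 4 libraries of this table. The paralogue Epc2 had 40.7, 52.3, 32.7 and 49.0 CPM in the same libraries, so that it was highest at OHT 3D like Epc1, but lowest at OHT 4D. Next to the limit at OHT 3D were H2afv with a log2-fold-change of -0.45, Ino80 with 0.43 and Mcrs1 with -0.40.

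At OHT 4D, 5 of the 33 IDs were past the limit. Ino80b and Ino80c, small subunits of INO80, were higher, 2 of 33 beside 6.48% of all genes. The 5′ model of Srcap, Mbtd1 and Ep400 were lower, 3 of 33 beside 8.89% of all genes. These shares are near the background, and the median log2-fold-change of the subunits was 0.00, as it was over all genes.

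Ino80b (ENSMUSG00000030034, chromosome 6 of NCBIM37, 83071759 to 83075425) had 14.1, 17.2, 22.9 and 13.4 CPM. Its log2-fold-change at OHT 4D was 0.66, a ratio of 1.63 (1.41 to 1.88). Ino80c had 22.7, 30, 35.9 and 19.0 CPM and a log2-fold-change of 0.64 at OHT 4D. For both genes OHT 3D lay between WT and OHT 4D, and Tc 2D was the lowest of the first 4 libraries.

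Mbtd1, which reads methylated histone H4 within TIP60, had 174, 154, 102 and 96.8 CPM, with a log2-fold-change of -0.76 at OHT 4D. Ep400 (ENSMUSG00000029505, chromosome 5, 111093392 to 111199736) had 151, 174, 90.5 and 163 CPM. It was therefore higher than WT at OHT 3D (log2-fold-change 0.21) and lower at OHT 4D (-0.73). Trrap, the large scaffold of TIP60, followed the same order with 130, 166, 95.3 and 154 CPM, and its log2-fold-changes were 0.35 and -0.45.

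**Figure D2:**
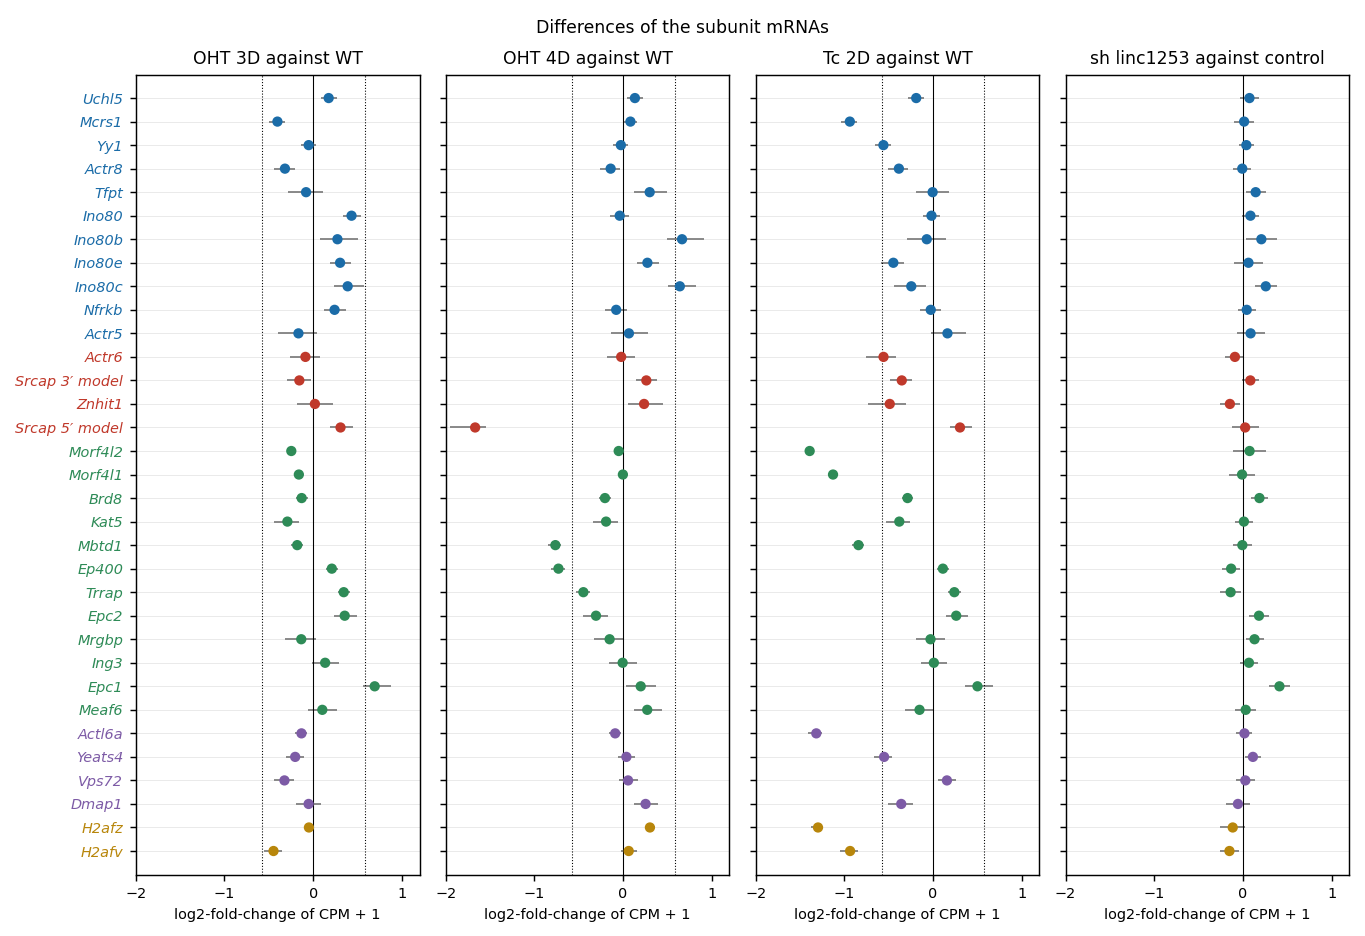
Each row is a subunit gene ID, and the horizontal axis of each panel is a log2-fold-change of CPM plus 1. Bars are 95% counting intervals of the CPM ratio in the first 3 panels and 1 SE of limma in the last, and dotted lines mark 0.58. Points past the dotted lines number 1, 5 and 7 in the first 3 panels, and the linc1253 panel runs from -0.15 to 0.41.

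Of the IDs that were lower at OHT 4D, Ep400 and Mbtd1 are among the longest, with 13971 and 13896 bases of merged exons, and the 5′ model of Srcap has 4914. Over all genes kept, the median log2-fold-change at OHT 4D ran with exon length, from 0.25 for genes of up to 1 kb to -0.40 for genes over 10 kb. At OHT 3D it went from -0.12 to 0.09, and at Tc 2D from -0.61 to 0.47. The subunits ran the same way at OHT 4D. Those of up to 2 kb were above 0 in 8 of 10 cases with a median of 0.11, and those over 5 kb were below 0 in 6 of 7 with a median of -0.20. Over all genes, 1823 of 2506 of up to 2 kb were above 0 and 3038 of 4285 over 5 kb were below 0. With the median of the length class subtracted, Ep400 stood at -0.33, Trrap at -0.05, Mbtd1 at -0.37, Ino80b at 0.52 and Ino80c at 0.54, all within the limit, and only the 5′ model of Srcap stayed past it, at -1.58. Of all genes, 6.6% were then higher and 6.18% lower, and at OHT 3D, where Epc1 stayed the only subunit past the limit, 6.32% and 5.29%. The classes rest on merged exons, while the longest coding transcript of Mbtd1 has 5245 bases. Genes of 4 to 6 kb had a median of -0.09 at OHT 4D, so whether Mbtd1 fell within the limit depends on the length used. The part of length in these differences was not tested.

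**Figure D3:**
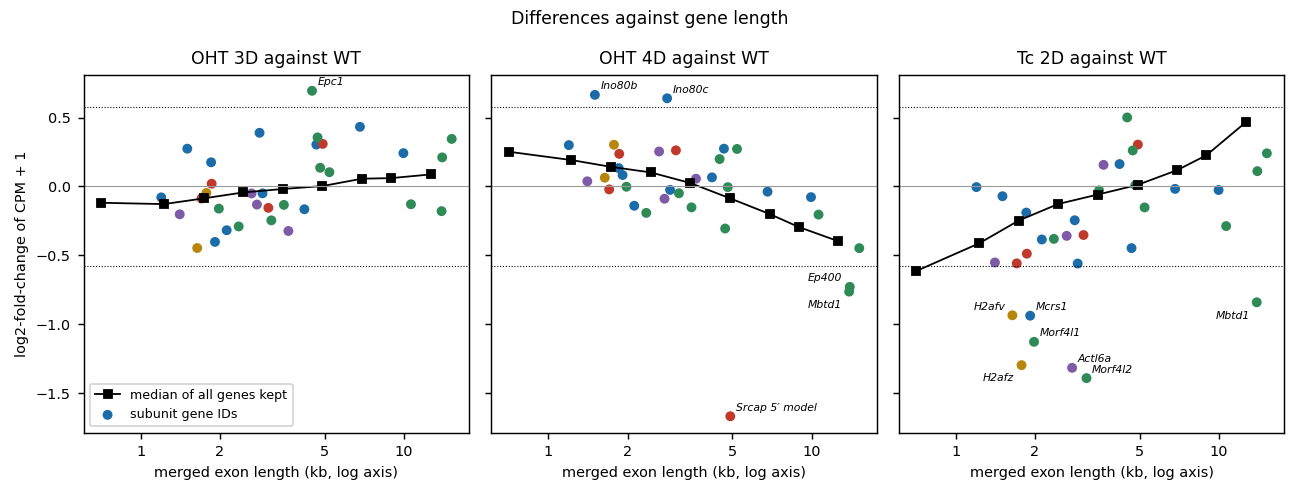
The horizontal axis, logarithmic, is the merged exon length and the vertical axis the log2-fold-change against WT. Black squares are medians of all genes in classes of length, joined by a line, and coloured points are the subunit IDs (blue INO80-specific, red SRCAP-specific, green TIP60-specific, purple shared, ochre H2A.Z). The black line runs from 0.25 to -0.40 at OHT 4D and from -0.61 to 0.47 at Tc 2D, and the named points are past the dotted limit of 0.58.

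Srcap, the ATPase that deposits H2A.Z, was the subunit with the largest difference at OHT 4D, and its 2 gene models went apart there. Both lie on the plus strand of chromosome 7. The 5′ model (ENSMUSG00000053877) runs from 134655541 to 134679890 and the 3′ model (ENSMUSG00000090663) from 134702900 to 134708780. The 5′ model had 38.7, 48.1, 11.5 and 48.0 CPM. Its ratio to WT at OHT 4D was 0.297 (0.258 to 0.341), a log2-fold-change of -1.67. The 3′ model had 45.8, 41.0, 55.2 and 35.7 CPM, so that at OHT 4D it was the highest of these libraries (log2-fold-change 0.26) while the 5′ model was the lowest.

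Reads on the 5′ model per read on the 3′ model came to 0.844, 1.17, 0.208 and 1.34 in the order above. The 4 shRNA libraries lay between 1.13 and 1.44. OHT 4D, with 262 reads on the 5′ model and 1259 on the 3′ model, was the lowest of the 8 libraries, and WT was next. To set this beside other genes, 11 further symbols that the annotation splits into a 5′ and a 3′ model were measured in the same way. At OHT 4D the ratio was below that of WT in 8 of the 11, with a median log2 change of -0.84 and a range of -1.84 to 0.88, while the log2 change of Srcap was -2.02. At OHT 3D it was above in 9 of 11 with a median of 0.23, and at Tc 2D in 9 of 11 with a median of 0.59. Poly(A) selection with a poly-T oligo, used for all libraries, keeps the 3′ ends of broken transcripts. The part of RNA integrity in the Srcap difference was not tested.

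**Figure D4:**
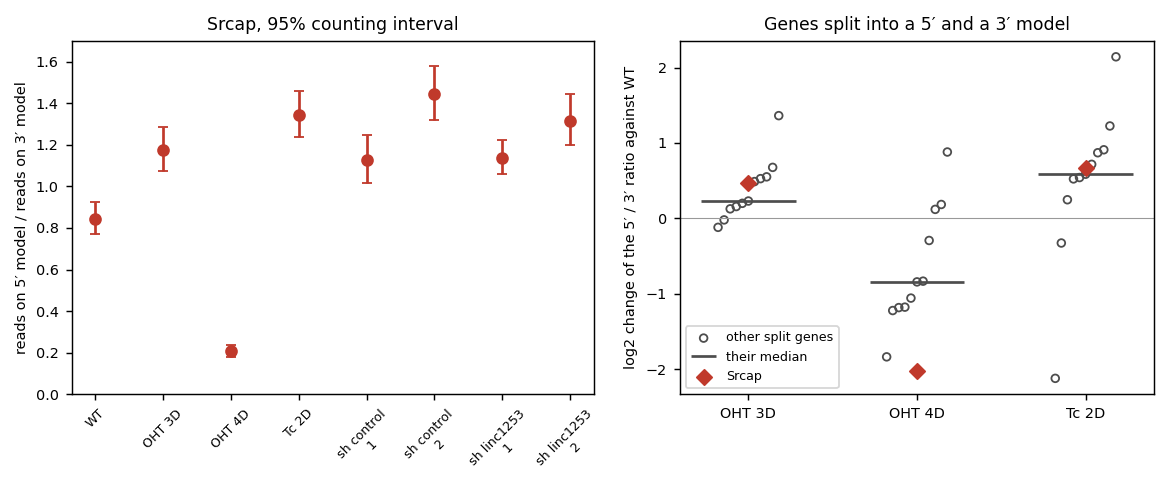
Left, reads on the 5′ model of Srcap divided by reads on its 3′ model in each library, with 95% counting intervals. Right, the log2 change of that ratio against WT for Srcap (diamond) and for 11 other split genes (circles, line at their median). OHT 4D has the lowest Srcap ratio (0.208), and at OHT 4D the median of the other genes is -0.84.

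After Oct4 depletion, 7 of the 33 IDs were lower than in WT by more than the limit and none was higher. The background is wide here, with 25.8% of all genes lower and 23.9% higher. The share of subunits lower (21.2%) was near the background, whereas the share higher was 0 of 33. The subunits' median log2-fold-change was -0.29, beside -0.06 for all genes. When CPM was replaced by reads per 1000000 without the TMM scaling, these medians became 0.03 and 0.25, a shift of 0.31 over all genes, and 35.7% of all genes were then higher and 16.05% lower. On that scale 3 IDs were higher (Epc1 at 0.82, the 5′ model of Srcap at 0.62 and Epc2 at 0.58) and 6 were lower, and the Mbtd1 log2-fold-change at Tc 2D was -0.52.

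Both H2A.Z genes were lower at Tc 2D. H2afz (ENSMUSG00000037894, chromosome 3, 137527451 to 137529886) had 252, 244, 311 and 102 CPM, a log2-fold-change of -1.30 at Tc 2D. H2afv (ENSMUSG00000041126, chromosome 11, 6327229 to 6344446) had 91.6, 67.0, 95.8 and 47.4 CPM, and -0.94 at Tc 2D. For both genes Tc 2D was the lowest library. These paralogues encode nearly the same protein, but their coding bases differ, as the first 120 from the NCBIM37 transcripts show, which bears on whether reads of the pair can be told apart. Capitals mark the positions at which the paralogues differ, counted from the A of the start codon in an alignment without gaps.
H2afz: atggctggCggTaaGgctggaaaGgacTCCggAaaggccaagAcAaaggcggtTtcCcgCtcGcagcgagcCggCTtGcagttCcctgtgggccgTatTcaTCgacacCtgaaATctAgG
H2afv: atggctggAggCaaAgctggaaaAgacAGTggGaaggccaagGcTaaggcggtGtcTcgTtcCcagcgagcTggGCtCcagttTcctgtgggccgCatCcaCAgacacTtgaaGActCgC

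The coding sequences are 387 bases each and differ at 81 positions (79.1% identity). The longest stretch without a difference is 14 bases. The genome holds 2 further loci that match at least 50% of the H2afz transcript at 95% identity or more, 6 for Morf4l1, and 1 each for Morf4l2 and Mcrs1, so that some reads of these 4 genes could be placed elsewhere. H2afz per kilobase exceeded H2afv in all 8 libraries. The ratio of the pair was between 1.98 (Tc 2D) and 3.36 (OHT 3D) in the first table, and between 5.86 and 6.56 in the shRNA libraries, which were normalized separately, a step that does not touch a ratio within a library. In the shRNA libraries H2afz had 817 and 627 CPM in the controls and 677 and 644 after linc1253 knockdown.

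The other 5 were Morf4l2, Actl6a, Morf4l1, Mcrs1 and Mbtd1. Morf4l2 (chromosome X, 133267481 to 133278229) had 646, 544.5, 624 and 246 CPM, a log2-fold-change of -1.39. Morf4l1 (chromosome 9, 89986509 to 90009658) had 313, 280, 312.5 and 143 CPM, and -1.13. Both paralogues were thus within the limit after Pontin depletion, and Tc 2D was their lowest library. Actl6a (chromosome 3, 32607468 to 32625890), the actin-like subunit that INO80 and TIP60 share with the BAF complex, had 167, 152, 157 and 66.3 CPM, and -1.32. Mcrs1, a scaffold subunit of INO80 also known from other assemblies, had 112, 84.7, 119 and 58.1 CPM, and -0.94. Mbtd1, at 96.8 CPM, was at -0.84, where all genes over 10 kb had a median of 0.47. Just inside the limit were Yy1, Actr6 (both -0.56) and Yeats4 (-0.55).

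With the length class median subtracted, 8 IDs were lower at Tc 2D, the same 7 and Brd8, the bromodomain subunit of TIP60, at -0.75 (166, 152, 144 and 136 CPM). Brd8 was classed by 10633 bases of merged exons, but its longest coding transcript has 4468. Genes of 4 to 6 kb had a median of 0.01 at Tc 2D, so that the call of Brd8 depends on the length used. Of all genes, 22.7% were then lower and 24.7% higher. Because Tc 2D and WT differ in cell line, Tc 2D was also set beside the 2 control shRNA libraries of ZHBTc4 cells, with all libraries on one median-ratio scale. The subunits' median log2-fold-change was then -0.08, beside 0.01 for all genes. Again 7 IDs were lower (24.1% of all genes were) and 6 of them were the same, H2afz (-2.62), Actl6a (-1.10), Morf4l1, H2afv (both -0.97), Mbtd1 (-0.90) and Morf4l2 (-0.87). Yy1 came in at -0.70 and Mcrs1 was at -0.39. Epc1 was higher, at 0.77 (24.7% of all genes were). These controls were infected with lentivirus, which Tc 2D was not. They were also sequenced on another instrument model, so that neither difference can be told apart from Oct4 depletion there. The ratio of H2afz to H2afv given above was higher in every shRNA library than in any library of the first table. The H2afz value against these controls thus cannot be parted from the set of libraries.

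The catalytic subunits stayed within the limit at Tc 2D. Ino80 had 67.8, 91.8, 66.0 and 66.9 CPM, so that OHT 3D was the highest and the other 3 were close together. Kat5 (TIP60), the acetyltransferase, had 40.7, 33.1, 35.5 and 31.0 CPM, highest in WT, with log2-fold-changes of -0.29, -0.19 and -0.38. Exons of Kat5 share 18% of their bases with Rnaseh2c on the other strand. Exons also overlap a gene on the other strand for Znhit1 with Plod3 (28.4%), Ino80e with Hirip3 and Doc2a (23.7%), Actl6a with Mrpl47 (16.2%), Morf4l1 with Gm17659 (13.2%) and Morf4l2 with BC065397 (6.16%). The library kit does not mark strand, so reads on the bases that such pairs share cannot be assigned to either gene by strand. How the counting treated them is not given in the sources used here.

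By complex, at Tc 2D 1 of 11 INO80-specific IDs, 0 of 4 SRCAP-specific, 3 of 12 TIP60-specific, 1 of 4 shared and 2 of 2 H2A.Z IDs were lower, beside 25.8% of all genes. The corresponding medians were -0.19, -0.42, -0.09, -0.46 and -1.12. At OHT 4D the medians were 0.08, 0.11, -0.17, 0.05 and 0.18. Among 7 other genes tied to these complexes (Ruvbl1, Ruvbl2, Actb, Ino80d, Anp32e, Nap1l1, Nap1l4), 5 were lower and 1 higher at Tc 2D, and Ruvbl1 was the 1 that was lower at OHT 3D and at OHT 4D. Ruvbl1 was also among the 5 lower at Tc 2D, with a log2-fold-change of -1.21 against WT, which is of another cell line. By quantitative RT-PCR, the study found no significant difference of Pontin mRNA after Oct4 depletion. Ruvbl2 had 327, 311, 364 and 169 CPM. Beside the subunits' 7 lower and 0 higher of 33 at Tc 2D, 8 of 23 BAF complex genes were lower and 3 higher (median 0.08), and 11 of 22 NuRD and ISWI genes were lower and 1 higher (median -0.59), where 25.8% of all genes were lower and 23.9% higher.

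The study also asked which genes respond to the knockdown of the long noncoding RNA linc1253, with 2 libraries against 2. In limma without a replicate block no subunit mRNA was called, and the log2-fold-change was below the limit of 0.58 in size for each of them. How far linc1253 was depleted was not analysed here. None of the 33 IDs passed an adjusted p of 0.05 in this fit with Benjamini-Hochberg adjustment over 13407 genes. Over all genes the share called was 0% in either direction. The study did call genes from these libraries, at a combined p below 0.05 from edgeR's exact test and a log2-median ratio test. It also left out genes with a small log2-median ratio. These limits are unlike the adjusted p used here, and the study's test was not repeated for the subunits. At an unadjusted p below 0.05, limma gave 1 subunit higher and 0 lower, and 496 genes higher and 503 lower in all. The quasi-likelihood test of edgeR and DESeq2, both on recovered reads, each called 0 subunits at an adjusted p of 0.05 and again 1 at an unadjusted p. Over all genes edgeR called 0. DESeq2 called 22 higher (0.209%) and 28 lower (0.265%) of the 10547 genes to which it gave an adjusted p. With a replicate block, limma called 3 subunits higher (Epc1, Brd8 and Ino80c) and 0 lower. That fit called 6.96% of all genes higher and 7.66% lower, but the labels tie the replicate number to no shared batch. Nothing in the labels says that the libraries of a group came from separate cultures, so these p-values measure only the spread between these samples, which may be technical.

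The log2-fold-changes ran from -0.15 to 0.41 with an SE of 0.09 to 0.19, and 30 of 33 were smaller than 0.2 in size. The largest 3 were Epc1, Ino80c and Ino80b. Their SE and adjusted p given here are from limma without the replicate block, while the fit with the block called Epc1 and Ino80c. Epc1 had 21.45 and 23.8 CPM in the controls and 29.1 and 31.7 after knockdown, so that the groups did not overlap. Its means were 22.6 ± 1.65 and 30.4 ± 1.79 (SD, n = 2 each), and its log2-fold-change was 0.41 ± 0.11 (SE, limma adjusted p = 0.57). Ino80c had 20.9 and 25.0 CPM against 27.2 and 27.7 (log2-fold-change 0.26 ± 0.12, limma adjusted p = 0.71), again without overlap. Ino80b had 16.1 and 13.1 against 19.6 and 14.6 (0.21 ± 0.18, limma adjusted p = 0.82), and its groups overlapped. In all, 8 IDs were higher in every pair of libraries and 2 lower, beside 18.8% and 19.2% of all genes.

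For the catalytic subunits the groups overlapped, except for the 3′ model of Srcap. Ino80 had 82.7 and 85.2 CPM in the controls and 84.4 and 93.9 after knockdown. Ep400 had 177 and 199 against 164 and 177, and Kat5 had 30.6 and 33.1 against 31.3 and 32.8. The 5′ model of Srcap had 37.8 and 50.6 against 42.4 and 46.7, and here its groups overlapped, while the 3′ model had 33.6 and 35.1 against 37.2 and 35.6 and did not overlap. Among the paralogues, Epc2 had 42.3 and 50.1 against 52.2 and 52.4, without overlap, and H2afv had 115 and 98.7 against 99.4 and 92.2, with overlap. Morf4l1 had 280 and 363 against 291 and 344, and Morf4l2 had 428 and 614 against 486 and 598, so that control 1 and control 2 were the lowest and the highest library of both genes. The same order of the controls held for Mbtd1 (192 and 224 against 201 and 212) and Actl6a (156 and 171 against 164 and 167). Mcrs1 had 92.5 and 81.5 against 93.1 and 82.5.

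Last, Pontin ChIP reads were counted at the subunits' promoters, from 2500 bases before to 500 bases after the most 5′ start of each gene. The ratio of Pontin over GFP, scaled by the reads in each library (40729076 and 17185883), was above 2-fold at 6 of 32 promoters, beside 14.8% of 21178 protein-coding promoters and 17.4% of those of genes expressed in the control shRNA libraries. The subunits' median log2 ratio was 0.34, beside 0.34 over all promoters and 0.45 over those of expressed genes. With the libraries scaled by the median ratio over all promoters, 3 of 32 were above 2-fold, beside 6.28% of all promoters and 7.08% of those of expressed genes. With 1 library each there is no test.

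The 6 were Uchl5, Ino80, Mcrs1 and Ino80c of INO80, Actl6a, and Epc1 of TIP60. Uchl5, a deubiquitinase bound to INO80, had the highest log2 ratio, 3.32 (95% counting interval 1.31 to 9.23 with mates counted as 1), from 71 Pontin reads and 3 GFP reads. The start of Trove2 lies within 2500 bases of its own, and for 6 further subunits (Brd8, Mbtd1, Znhit1, Morf4l2, Ino80e, Tfpt) another gene also starts that near. Its Pontin level, 1.74 reads per 1000000 (RPM), was below the subunits' median of 2.28, and its GFP level, 0.175 RPM, was the lowest of the 32. Ino80 had 138 Pontin and 15 GFP reads (1.96, 0.94 to 3.42), and Mcrs1 had 94 and 13 (1.61, 0.50 to 3.24). All 6 had no more GFP reads than the subunits' median of 28.5. The lowest 3 were Ep400 with 75 and 43 reads (-0.44), H2afv with 84 and 49 (-0.47) and Mrgbp, a small TIP60 subunit, with 34 and 25 (-0.80, -1.89 to 0.46). Within 1000 bases of the start Ep400 was at 0.38 and H2afv at 0.14, and with 1 read kept per position and strand H2afv was at 0.08, so that their direction turned there, while Mrgbp was at -0.44 and -0.94. The counting interval lay above 0 for 8 subunits and below 0 for none, but the median over all promoters was itself 0.34. Its lower end was above 0.34 for Uchl5, Ino80 and Mcrs1 only. The share of all promoters with such an interval was not counted.

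The promoters of 2 subunits with a high ratio in the window above and of the 2 with the lowest there are shown. Within 1000 bases of the start, Mcrs1 was at 0.55, near the median of 0.53 over all promoters. Each sequence runs from 270 bases before the start to 30 bases from it on, 300 bases, read from NCBIM37 in the direction of transcription. Capitals mark each CpG, the dinucleotide that is dense in CpG island promoters.
Ino80, chr2:119303394-119303693, minus strand: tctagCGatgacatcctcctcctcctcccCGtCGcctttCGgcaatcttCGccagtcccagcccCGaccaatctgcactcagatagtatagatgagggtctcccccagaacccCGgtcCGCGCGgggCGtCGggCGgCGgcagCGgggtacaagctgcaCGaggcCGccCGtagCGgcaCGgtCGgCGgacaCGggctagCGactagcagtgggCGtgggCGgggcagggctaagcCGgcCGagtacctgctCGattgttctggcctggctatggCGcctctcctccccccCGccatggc
Mcrs1, chr15:99082363-99082662, minus strand: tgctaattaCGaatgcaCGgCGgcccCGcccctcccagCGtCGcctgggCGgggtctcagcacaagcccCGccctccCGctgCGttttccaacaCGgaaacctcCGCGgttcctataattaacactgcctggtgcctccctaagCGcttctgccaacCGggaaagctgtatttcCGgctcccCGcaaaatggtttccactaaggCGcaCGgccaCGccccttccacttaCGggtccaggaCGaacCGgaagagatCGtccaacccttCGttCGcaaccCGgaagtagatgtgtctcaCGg
H2afv, chr11:6344417-6344716, minus strand: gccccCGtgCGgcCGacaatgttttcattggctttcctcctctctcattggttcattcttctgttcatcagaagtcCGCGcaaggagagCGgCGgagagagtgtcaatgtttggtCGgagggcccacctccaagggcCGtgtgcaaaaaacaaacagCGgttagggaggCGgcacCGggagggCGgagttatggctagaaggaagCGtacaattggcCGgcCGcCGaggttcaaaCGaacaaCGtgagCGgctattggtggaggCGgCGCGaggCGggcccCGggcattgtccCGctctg
Mrgbp, chr2:180315739-180316038, plus strand: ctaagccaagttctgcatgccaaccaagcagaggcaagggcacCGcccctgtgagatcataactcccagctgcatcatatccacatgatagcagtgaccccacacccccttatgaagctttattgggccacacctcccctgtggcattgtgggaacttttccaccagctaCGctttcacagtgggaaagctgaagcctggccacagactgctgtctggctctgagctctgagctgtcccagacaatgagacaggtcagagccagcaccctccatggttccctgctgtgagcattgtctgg

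Ino80 has 31 CpG in this window, Mcrs1 28, H2afv 26 and Mrgbp 2. The 6 promoters above 2-fold had between 15 and 38 CpG (median 29.5), and the other 26 had between 2 and 47 (median 18). Yy1, with 47, had a log2 ratio of -0.17, and of 1.56 within 1000 bases of the start. All protein-coding promoters had a median of 11. Of the letters searched on both strands, AANATGGC, the core bound by the INO80 partner YY1, was in 4 of 32 windows (Actr8, Epc1, Ino80e, Kat5) and in 5.79% of 22350 protein-coding windows. The E-box CACGTG was in 5 (H2afz, Ino80e, Kat5, Mbtd1, Znhit1) and in 7.72%, and the octamer ATGCAAAT, bound by Oct4, was in 0 and in 1.82%.

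The ratio depended on the distance from the start. Within 1000 bases on either side it was above 2-fold at 15 of 32 subunit promoters, beside 26.4% of all promoters and 31.1% of those of expressed genes. Kat5 (2.38) was above Ino80 (2.11) there and Epc1 (1.98) was below it, while Mcrs1 was at 0.55. The median log2 ratio in that window was 0.53 over all promoters, 0.67 over those of expressed genes and 0.91 over the subunits. Within 500 bases of the start, the mean over the subunits was 0.103 RPM of Pontin and 0.0462 RPM of GFP per 100 bases, a ratio of 2.22. Over all expressed genes these means were 0.0931 and 0.0590, a ratio of 1.58, and GFP too was highest there in the bin 50 bases after the start, at 0.0983. From the bin 50 bases before the start to that bin, GFP over expressed genes rose from 0.0434 and Pontin from 0.0810 to 0.124. The control thus shares this step, and the bins that hold it are part of the ratio of expressed genes. Between 4 and 5 kb before the start the mean ratio was 1.01 for the subunits and 1.04 for expressed genes.

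**Figure D5:**
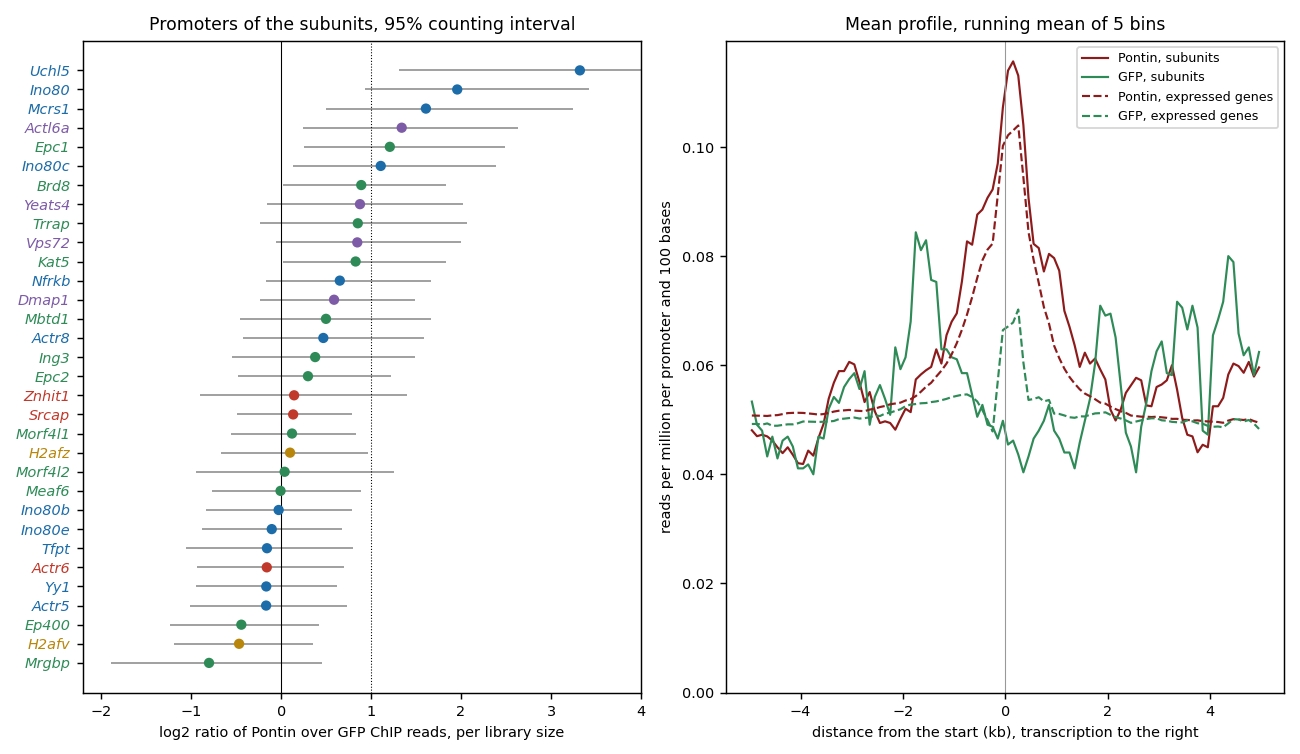
Left, log2 ratio of Pontin over GFP ChIP reads from 2500 bases before to 500 after each start, in order, with 95% counting intervals (that of Uchl5 runs past the axis, to 9.23) and a dotted line at 2-fold, which 6 of 32 points pass. Right, mean RPM per promoter and 100 bases against distance from the start for the subunits (solid) and all expressed genes (dashed), as a running mean of 5 bins. Pontin (red) peaks just after the start in both sets. GFP (green) also peaks there over all expressed genes, at a lower level, so that the control shares this peak. GFP runs unevenly over the subunits, which are few.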

How the data were processed

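Poly(A) mRNA was sequenced in 8 libraries (Illumina TruSeq RNA Kit v2, which does not mark strand). The depletion libraries with WT and the shRNA libraries were run on different Illumina HiSeq models. The authors used cutadapt for trimming, TopHat for alignment to NCBIM37 and HTSeq for counting, and deposited CPM scaled by edgeR's TMM in separate tables for the 4 depletion and the 4 shRNA libraries. The CPM gave whole reads for 100% of values within 0.01 read. ChIP reads, aligned with Bowtie2, were deposited as intervals with a mapping quality score. Versions are not given in the sources used here.

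Genes above 1 CPM in at least 1 library were kept (13449 and 13407). Against WT, with 1 library each, a gene was called past a log2-fold-change of 0.58 on CPM plus 1, with exact binomial 95% counting intervals of the CPM ratio. For linc1253, limma 3.58.1 with trend on log2 of CPM plus 1 was fitted to all genes with Benjamini-Hochberg adjustment (adjusted p of 0.05), and the recovered reads were tested with edgeR 4.0.16 (quasi-likelihood) and DESeq2 1.42.0. Gene models were GENCODE M1 (NCBIM37). The steps were tested on simulated data. Alternatives were other pseudocounts, filters, scalings, controls, ChIP windows and left-out libraries. Subtraction of length class medians and RefSeq starts were added after seeing the data.

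The subunits and gene lists were chosen with earlier results of these data known. Values in every library are given for subunits past 0.58, the ATPases, Kat5, paralogue pairs and the 3 largest linc1253 differences, and in ChIP for the 3 highest and 3 lowest ratios. Trrap, Brd8, Ing3, Actr6, Yeats4, Yy1 and Ruvbl2 were named after their values were seen.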

Additional observations from a re-analysis of the deposited data

Results flagged for a closer look

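The 5′ model of Srcap and Ep400 lay on opposite sides of WT at the 2 times after OHT, past the limit of 0.58 at 1 of them. For Srcap the log2-fold-change was 0.31 at OHT 3D and -1.67 at OHT 4D, a difference of -1.98. For Ep400 it was 0.21 and -0.73, a difference of -0.94. With the length class median subtracted Ep400 was at 0.12 and -0.33, neither past the limit, and the 5′ model of Srcap at 0.31 and -1.58. Each time has 1 library, so the difference was not tested.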

How the results depend on the processing

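All 13 calls against WT were kept with 0.5 or 3 added to CPM, without the filter, with a minimum of 5 CPM and with median-ratio scaling. A limit of 1 left 0 subunits higher at OHT 3D (1.90% of all genes), 0 higher (2.38%) and 1 lower (1.61%) at OHT 4D, and 0 higher (12.8%) and 4 lower (12.6%) at Tc 2D. With length class medians subtracted, by merged exons (added after seeing the data), 9 of the 13 calls were kept, with 0 higher and 1 lower at OHT 4D. Without TMM 12 of 13 were kept and 3 subunits were higher at Tc 2D. Against the ZHBTc4 control libraries 6 of 7 were kept and 1 was higher. Median-ratio scaling of ChIP left 3 promoters above 2-fold (6.28% of all promoters) and 1000 bases on either side gave 15 (26.4%), while duplicate removal, a mapping quality of at least 30 and RefSeq starts (added after seeing the data) gave 5 (11.8%), 6 (14.8%) and 7 (15.2%). No called value changed sign in the mRNA settings counted here. The cause of these changes was not tested.

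For linc1253, left-out libraries gave 0 to 0 subunits called, in either direction. Each such fit leaves 1 library in a group, which is assumed to vary like the other group, so these counts say nothing about stability. With the replicate block, limma called 3 subunits higher (Epc1, Brd8 and Ino80c) and 0 lower, beside 933 genes higher (6.96%) and 1027 lower (7.66%). Same-numbered libraries deviated together (correlation 0.673), but with 2 pairs, and labels that tie the number to no shared batch, the pairing stays a hint from the data. Depth limits the ChIP ratios, with 3 to 60 GFP reads per promoter, and 1 library a group limits the ChIP and every difference against WT.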
